A study of Sus scrofa with 9 samples.

Results

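The 9 genes described here encode the glucocorticoid receptor (NR3C1), the enzyme that regenerates active glucocorticoid inside cells (HSD11B1), and 7 genes that glucocorticoids are known to induce (FKBP5, TSC22D3, PER1, ZBTB16, KLF9, SGK1 and ERRFI1). They were listed by symbol, with earlier results of these data known, and all 9 were found among the 19535 gene rows of the count table. Porcine valvular interstitial cells (PVICs), which maintain the leaflets of the aortic valve, were grown from wild type pigs aged 4 to 5 months. The control cells were kept in DMEM. The study's methods list fetal bovine serum in the DMEM for cell culture, and the steroid content of the control medium is not given there. The OIM cells received osteogenic medium, with insulin at 1e-07 mol/L, ascorbic acid at 50 µg/mL and sodium dihydrogen phosphate at 2 mmol/L, and the bFGF cells received the same medium with 50 ng/mL basic fibroblast growth factor. Each group had 3 libraries. The labels give 3 days of treatment, whereas the study's methods give 48 hours before RNA extraction. The study's abstract places bFGF after OIM, and its methods do not say how long cells had OIM before bFGF was added. Neither source ties a library to an animal, so p-values measure the spread between these libraries, which may be technical.

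The glucocorticoid receptor is a nuclear receptor that waits in the cytoplasm in a complex with heat shock protein 90 and its cochaperones. Once it binds cortisol or a synthetic steroid such as dexamethasone, it moves to the nucleus, binds DNA at glucocorticoid response elements and turns on genes that include brakes on its own signal. Many osteogenic media contain dexamethasone. The study's methods describe this one as a commercial complete medium (Cyagen Biosciences), whose full composition is not given in the sources used here, with phosphate, ascorbic acid and insulin as the listed supplements and no steroid named. Thus the levels of these genes in OIM against control bear on whether a steroid response beyond that in control is seen. None of the 9 genes responds to glucocorticoids alone: growth factors, serum and the circadian clock are also known to act on several of them.

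FKBP5 is the member best known for response elements inside its introns, and the porcine gene was searched for them. The consensus element, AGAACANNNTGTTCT, reads the same on both strands. FKBP5 is annotated at chr7:31441764-31550704 (minus strand) of Sscrofa11.1, the build named in the labels, and its span of 108941 bases held 2 exact matches, both in introns. They are shown in the direction of transcription with the matched bases in capitals.

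FKBP5 intron, chr7:31467777-31467817: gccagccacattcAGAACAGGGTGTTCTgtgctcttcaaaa

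FKBP5 intron, chr7:31513956-31513996: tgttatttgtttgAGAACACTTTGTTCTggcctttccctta

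The elements lie 82907 and 36728 bases from the annotated gene start. Of windows of this length laid end to end along the assembled chromosomes, 1.79% held at least 1 match. The spans of the other 8 genes held 0 exact matches, and so did the 5000 bases on each side of all 9 gene starts, where 0.103% of the windows of 19509 genes held one. Real elements often depart from the consensus, so a window without a match says only that these letters were not found in it. Here and below, only the outermost annotated start of each gene was used, so starts inside a gene had no window of their own.

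PER1, the clock gene among the members, was searched for the E-box CACGTG, the palindromic site that clock factors bind. In the 250 bases before and 50 bases after the annotated start, PER1, FKBP5 and NR3C1 held 1 match each, the other 6 members held none, and 7.92% of all such windows held one. The 3 matches are shown with 20 bases on each side, again in the direction of transcription, with the E-box in capitals.

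PER1, chr12:53376791-53376836: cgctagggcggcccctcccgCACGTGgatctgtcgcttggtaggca

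FKBP5, chr7:31550835-31550880: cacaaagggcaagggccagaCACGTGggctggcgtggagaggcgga

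NR3C1, chr2:144956600-144956645: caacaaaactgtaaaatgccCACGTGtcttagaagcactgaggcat

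The libraries held 57075793 to 67371523 gene counts in the control and OIM groups and 46773376 to 48270827 in the bFGF group, so each bFGF library was shallower than each of the others. Levels below are in CPM, counts scaled to library size with TMM normalization, which matches libraries on their typical gene, and error is given as SD over 3 libraries. A gene was called when edgeR's quasi-likelihood test gave an adjusted p of at most 0.05 over all 13662 genes tested and the log2 fold change was at least 0.5 in size. All 9 members were tested, with 24 to 8237 counts per library. The 10 markers of valvular interstitial cells (among them VIM, COL1A1, PDGFRA and DCN) were all above 1 CPM in each group, and their summed level was 83700 to 92660 CPM in control and OIM and 48220 to 49280 CPM in bFGF. Between bFGF and OIM, 6 of the 10 were called lower (the collagen genes COL1A1, COL1A2 and COL3A1, DCN, FN1 and ACTA2), VIM was called higher (log2 fold change 0.66), and PDGFRA, PDGFRB and LUM were not called. Of all genes tested, 18.4% were called lower in that comparison and 17.7% higher. The 8 endothelial markers summed to 20.85 to 24.15 CPM in control and OIM and 36.32 to 38.8 CPM in bFGF. Of the 8, 6 were called higher with bFGF than in OIM, beside 17.7% of all genes. The 6 immune markers summed to 12.99 to 16.14 CPM in control and OIM and 8.15 to 8.753 CPM in bFGF. Most of that sum was CD14, which was called lower with bFGF than in OIM (log2 fold change -0.81), and CD3E was at 0 throughout. In bulk RNA, fewer cells of a type and less RNA per cell cannot be told apart, and the part of these marker shifts in the results was not tested.

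Between OIM and control, the glucocorticoid-responsive genes stayed close to their control levels. None of the 9 was called higher or lower by edgeR, where 1.49% of all genes tested were called higher and 0.864% lower. DESeq2 also called 0. At an unadjusted p of 0.05, 4 of the 9 differed without the fold limit and 0 with it, where 26.2% and 4.02% of all genes tested did. The median log2 fold change of the 9 was -0.0089, beside -0.0019 for all genes tested. The median size of the change, regardless of sign, was 0.14 for the members and 0.11 for all genes.

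**Figure D1:**
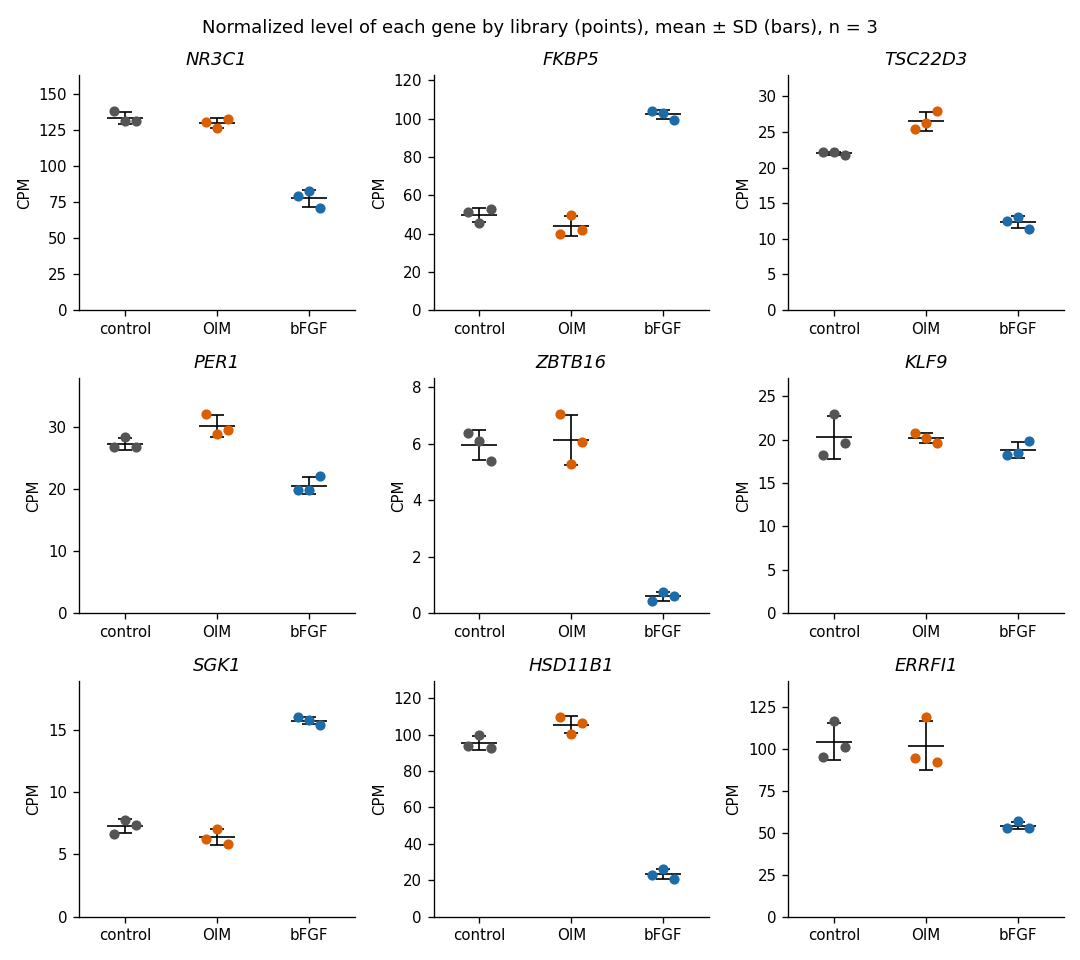
Each panel plots 1 gene, with the normalized level in CPM on a linear axis from 0 and the control, OIM and bFGF groups along the horizontal axis. Points are the 3 libraries of a group, and bars give the mean ± SD. The control and OIM points lie at similar heights in every panel, while the bFGF points lie apart in all panels but KLF9.

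FKBP5 encodes a cochaperone of heat shock protein 90 that lowers the affinity of the receptor for hormone, and it is among the most sensitive induced transcripts. It had 51.1, 45.4 and 52.7 CPM in control replicates 1 to 3 and 39.6, 49.7 and 42.1 CPM in the OIM replicates. The 2 groups overlapped through OIM replicate 2, and the mean was lower in OIM. The log2 fold change was -0.18 (95% interval -0.33 to -0.037, edgeR adjusted p = 0.0916). Without OIM replicate 2 it was -0.28 with an adjusted p of 0.000622, still short of the fold limit.

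TSC22D3 encodes the leucine zipper protein GILZ, an inhibitor of inflammatory transcription factors. Control replicates had 22.1, 22.1 and 21.7 CPM and OIM replicates 25.4, 26.2 and 27.97 CPM, so the lowest OIM library exceeded the highest of the control libraries. This was the largest difference of the 9 between these groups, a log2 fold change of 0.27 (95% interval 0.12 to 0.41), which corresponds to a level 1.21 times that of control. It was also the single member that passed the adjusted p alone (0.0118 in edgeR), as 13.6% of all genes did, but its change was under the fold limit. Without OIM replicate 3 the adjusted p was 0.064.

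PER1 encodes a repressor of the circadian clock that serum and steroid also induce acutely. It had 26.8, 28.4 and 26.7 CPM in control and 32.1, 28.8 and 29.5 CPM in OIM, a log2 fold change of 0.14 (95% interval 0.0040 to 0.28, adjusted p = 0.177 in edgeR). HSD11B1, which converts inert cortisone to cortisol, had 93.8, 99.6 and 92.6 CPM in control and 109.7, 100.6 and 106.4 CPM in OIM. Its log2 fold change was 0.15 (95% interval 0.024 to 0.27, edgeR adjusted p = 0.109). For TSC22D3, PER1 and HSD11B1 the groups did not overlap. That makes 3 of 9 members, and 28.8% of all genes tested showed the same separation.

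The other members showed no separation of OIM from control. ZBTB16, which encodes a zinc finger repressor that is strongly induced by steroid in many stromal cells, had 6.37, 6.11 and 5.37 CPM in control and 7.05, 5.28 and 6.06 CPM in OIM. Its log2 fold change was 0.041 (95% interval -0.27 to 0.35), so the interval ran up to a level 1.28 times that of control. KLF9, a Krüppel-like factor gene and a direct receptor target, had 18.2, 22.9 and 19.6 CPM in control and 20.7, 20.2 and 19.6 CPM in OIM. Its interval reached from 0.884 to 1.12 times the control level. SGK1, a kinase gene that steroid and serum induce, had 6.64, 7.79 and 7.38 CPM in control and 6.25, 7.06 and 5.81 CPM in OIM, with an interval of 0.757 to 1.02 times control. These 3 genes overlapped between the groups.

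NR3C1 itself had 138.7, 131.3 and 131.5 CPM in control and 131.0, 126.4 and 132.7 CPM in OIM, a log2 fold change of -0.042 (95% interval -0.14 to 0.058). ERRFI1, which encodes the feedback inhibitor MIG6 of the EGF receptor, had 94.9, 116.3 and 101.0 CPM in control and 94.4, 118.8 and 92.3 CPM in OIM, with an interval of 0.874 to 1.10 times control. Replicate 2 was the highest library for ERRFI1 in both groups. Across the 7 induced genes, the highest upper bound of the 95% intervals was 1.33 times control, for TSC22D3. These intervals are not adjusted for the number of genes, and transcript levels do not measure whether a steroid was in the medium.

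Addition of bFGF to OIM gave a different picture. Of the 9 genes, 2 were called higher (FKBP5 and SGK1), 6 were called lower (NR3C1, TSC22D3, PER1, ZBTB16, HSD11B1 and ERRFI1), and KLF9 was not called. Among all genes tested, 17.7% were called higher and 18.4% lower. The bFGF and OIM libraries did not overlap in the 8 called members, nor in 72.1% of all genes. The median log2 fold change of the members was -0.74, beside -0.0029 for all genes.

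**Figure D2:**
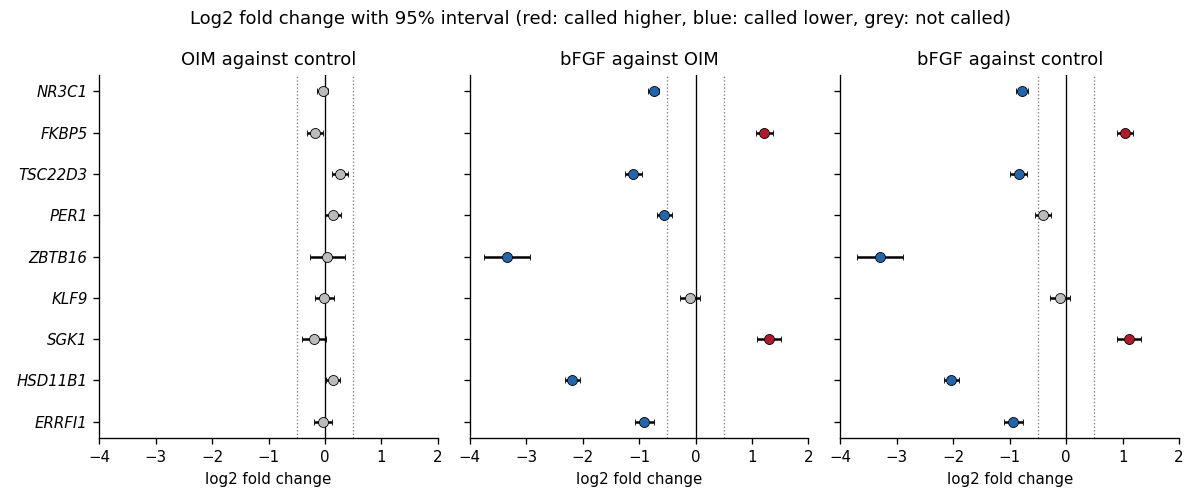
Log2 fold changes of the 9 genes are plotted along the horizontal axis for OIM against control, bFGF against OIM and bFGF against control, with bars for the 95% interval and dotted lines at the fold limit of 0.5 in both directions. All points are grey (not called) and inside the dotted lines for OIM against control, while FKBP5 and SGK1 are red (higher) and the called genes to the left of 0 are blue (lower) in the bFGF comparisons.

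Transcripts of the receptor and of the enzyme that regenerates cortisol were both lower. NR3C1 fell to 79.3, 82.6 and 71.1 CPM in the bFGF replicates from 126.4 to 132.7 CPM in OIM, a log2 change of -0.74 ± 0.049 (SE, edgeR adjusted p = 3.83e-11). HSD11B1 fell to 22.6, 26.3 and 20.9 CPM from 100.6 to 109.7 CPM. Its log2 change of -2.18 ± 0.064 (SE, edgeR adjusted p = 1.81e-16) put its level 4.54-fold lower, with no overlap between groups.

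The induced genes split in direction. ZBTB16 had 0.448, 0.750 and 0.616 CPM with bFGF, from 24, 39 and 32 counts, against 5.28 to 7.05 CPM in OIM. This was the largest change of the 9, with a log2 change of -3.34 ± 0.19 (SE, edgeR adjusted p = 5.88e-12), or 10.1-fold lower. TSC22D3 fell to 12.5, 13.1 and 11.4 CPM, a log2 change of -1.11 ± 0.072 (SE, edgeR adjusted p = 3.64e-11). All bFGF levels of TSC22D3 were below those of OIM and of control. ERRFI1 fell to 52.9, 56.9 and 52.8 CPM, a log2 change of -0.91 ± 0.081 (SE, edgeR adjusted p = 4.14e-09).

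PER1 was closest to the limits. It had 19.8, 19.8 and 22.1 CPM with bFGF, a log2 change of -0.55 ± 0.067 (SE, edgeR adjusted p = 4.28e-07). When counts were scaled by library totals without TMM, its change was -0.33 and it was not called. Under that scaling the median of all genes shifted up by 0.22 on the log2 scale in bFGF against OIM, and 68.8% of the calls over all genes were higher in place of 49.0%. The other 7 called members were called under both scalings.

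FKBP5 and SGK1 moved the opposite way. FKBP5 rose to 104.2, 103.2 and 99.6 CPM from 39.6 to 49.7 CPM, a log2 change of 1.22 ± 0.068 (SE, edgeR adjusted p = 3.09e-12) and a 2.33-fold higher level. SGK1 rose to 16.0, 15.8 and 15.4 CPM from 5.81 to 7.06 CPM, a log2 change of 1.30 ± 0.099 (SE, edgeR adjusted p = 4.3e-10) and a 2.47-fold higher level. In both genes the lowest bFGF library lay far above the highest OIM library, by more than the spread within either group. KLF9 had 18.2, 18.4 and 19.8 CPM with bFGF, which overlapped OIM, and its log2 fold change was -0.099 (95% interval -0.27 to 0.071, adjusted p = 0.29 in edgeR). With library totals alone the change of KLF9 was 0.12.

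Cells with bFGF also differed from control, a comparison that shares the bFGF libraries with the one above and differs from it by the osteogenic medium as well. FKBP5 (log2 fold change 1.04) and SGK1 (1.11) were again called higher, and 5 members were called lower: NR3C1 (-0.79), TSC22D3 (-0.84), ZBTB16 (-3.30), HSD11B1 (-2.04) and ERRFI1 (-0.94). Over all genes, 18.9% were called higher and 20.0% lower. PER1 had a log2 fold change of -0.41 (edgeR adjusted p = 1.94e-05), under the fold limit, and -0.19 with library totals alone, and KLF9 had -0.11 (adjusted p = 0.242). The groups did not overlap in 8 of 9 members and in 73.7% of all genes.

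Levels of different genes were compared per kilobase of annotated exon (RPKM on the same normalized libraries). In control, HSD11B1 was highest at 52.1 ± 2.05 RPKM (SD, n = 3), followed by ERRFI1 at 33.3 ± 3.54 and KLF9 at 27.7 ± 3.33 RPKM, and the control ranges of those last 2 genes overlapped. NR3C1 had 16.0 ± 0.503, FKBP5 10.1 ± 0.782, TSC22D3 4.92 ± 0.0543, PER1 4.47 ± 0.160, SGK1 1.84 ± 0.147 and ZBTB16 0.737 ± 0.0637 RPKM in control (SD, n = 3), with no overlap between neighbours in this order. OIM gave the same order, and no neighbouring ranges overlapped. With bFGF the order was KLF9, FKBP5, ERRFI1, HSD11B1, NR3C1, SGK1, PER1, TSC22D3 and ZBTB16, so HSD11B1 was no longer highest and FKBP5 stood next to KLF9 at the top. No neighbouring ranges overlapped there either. The annotated model of KLF9 is 732 bases long, against 1831 to 8374 bases for the other genes. Its RPKM is set by that short length, and its rank carries this limit.

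**Figure D3:**
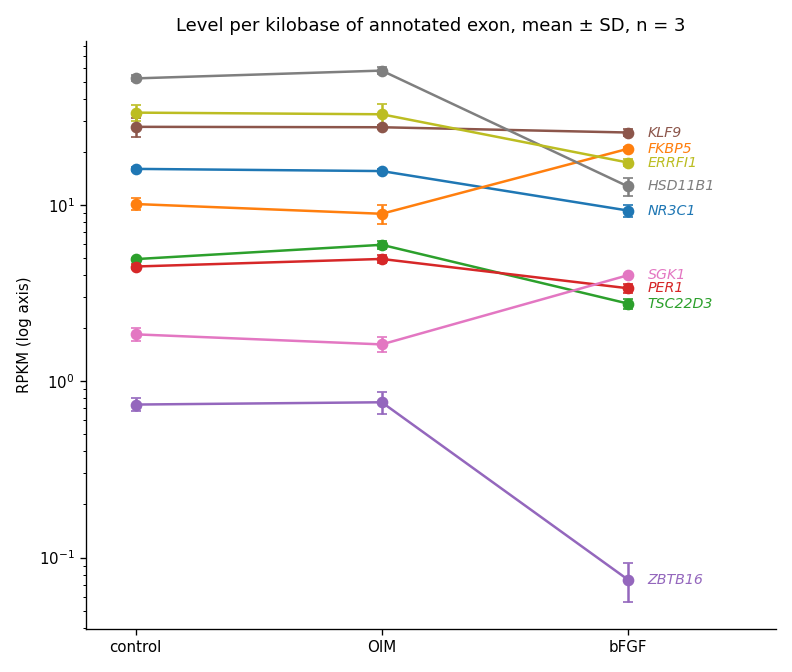
The level of each gene per kilobase of annotated exon (RPKM, log axis) is joined across the control, OIM and bFGF groups, as means ± SD of 3 libraries. The lines run nearly level from control to OIM, and then FKBP5 and SGK1 climb while HSD11B1, ZBTB16 and TSC22D3 drop, so that the lines cross.

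Some members share their locus with other genes, and whether strand was used in counting is not given in the sources used here. HSD11B1 (chromosome 9, 133231451 to 133278396, minus strand) overlaps C9H1orf74 on the opposite strand, which had 446 to 694 counts per library, against 1086 to 6555 for HSD11B1. A gene model on the opposite strand within NR3C1 (chromosome 2, 144822937 to 144956451, minus strand) had 0 counts in all libraries. FKBP5 holds 2 annotated genes on the opposite strand, the non-coding LOC110261510, whose transcript was at 0 in all libraries, and the pseudogene LOC110261509, which was not analysed here. Within ZBTB16 (chromosome 9, 41639536 to 41839254, plus strand) lies the non-coding gene LOC106504879 on the same strand. Its transcript had estimated counts of 96.4, 97.0 and 209.5 in control, 75.2, 102.9 and 151.7 in OIM and 80.6, 112.1 and 94.4 in bFGF. These values are not scaled for depth, and all 3 groups overlapped, whereas the bFGF libraries of ZBTB16 lay below the other groups. A second non-coding gene within ZBTB16 on the same strand, LOC110255434, had a transcript with estimated counts of 10.9, 14.5 and 0 in control, 9.64, 8.43 and 6.01 in OIM and 0 in the 3 bFGF libraries. It was therefore listed at 0 in all bFGF libraries and in 1 control library. The only circRNA that overlapped a member lay at the annotated end of KLF9 (chromosome 1, 223722952 to 223723842, minus strand), with 0 to 12 junction reads per library.

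The machinery around the receptor was followed in a list of 15 genes, of which 14 were in the table and tested. Between OIM and control, 0 of 14 were called by edgeR or DESeq2 (4 at an unadjusted p without the fold limit, 0 with it, beside 26.2% and 4.02% of all genes), and the median log2 fold change was -0.029. Over all genes, edgeR called 2.35% in either direction. Between bFGF and OIM, 2 were called higher and 2 lower, with a median of 0.041, where 36.2% of all genes were called in either direction. With library totals alone, 3 were called higher and 0 lower, and the median was 0.26. FKBP4, which encodes the cochaperone FKBP52 that favours hormone binding and nuclear entry of the receptor, rose from 35.5 ± 2.68 to 100.8 ± 1.33 CPM (SD, n = 3), or 1.51 higher on the log2 scale. STIP1, a cochaperone gene that links heat shock proteins 70 and 90, rose by 0.51. NCOA2, a nuclear receptor coactivator gene, and ABCB1, which encodes an efflux pump that exports some steroids, were called lower at log2 fold changes of -0.57 and -0.59. With library totals alone NCOA2 (-0.35) and ABCB1 (-0.37) were not called, and the added call was HSP90AB1, a heat shock protein 90 gene (0.69). HSD11B2, the enzyme that inactivates cortisol, was near 0, at 0.0954 ± 0.0938 CPM in OIM and 0.119 ± 0.141 CPM with bFGF (SD, n = 3), and HSD11B2 was not called.

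Of 22 further genes that glucocorticoids are known to induce, 21 were in the table and tested. In OIM against control, RGS2, a regulator of G protein signalling, was called higher (log2 fold change 0.63), and the lipoprotein lipase inhibitor gene ANGPTL4 (-0.59) and the lipocalin gene LCN2 (-0.70) were called lower, while 18 were not called. Over all genes 2.35% were called in either direction. At an unadjusted p, 14 of 21 differed without the fold limit and 3 with it, beside 26.2% and 4.02% of all genes, and the median of all 21 was -0.15. In bFGF against OIM, 13 of 21 were called lower and 0 higher, beside 18.4% and 17.7% of all genes, with a median log2 fold change of -0.84. Scaling by library totals alone gave 11 lower and 0 higher. LCN2 fell from 32.3 ± 0.282 to 3.27 ± 0.526 CPM (SD, n = 3), which is -3.30 on the log2 scale. CEBPD, a transcription factor gene of the acute phase response, fell from 374.5 ± 11.8 to 85.1 ± 2.52 CPM, which is -2.14 on the same scale. KLF15, a Krüppel-like factor gene of fasting metabolism, and IRS2, an adaptor of the insulin receptor, had log2 fold changes of -2.12 and -1.94. Several of these genes also answer to insulin, hypoxia or inflammatory signals.

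A list of 16 genes that glucocorticoids are known to repress held 14 that were tested. MMP3 (stromelysin) was called lower in OIM than in control, from 1.94 ± 0.154 to 0.963 ± 0.259 CPM (SD, n = 3), and the other 13 were not called. This is 1 of 14, beside 2.35% of all genes. At an unadjusted p, 8 differed without the fold limit and 3 with it (26.2% and 4.02% of all genes), and the median log2 fold change of all 14 was -0.25. Without OIM replicate 2, the number called was 3. With bFGF, 8 were called higher than in OIM and 3 lower (17.7% and 18.4% of all genes), with a median of 0.98, and with library totals alone 9 were called higher and 2 lower. MMP1, an interstitial collagenase, rose from 10.9 ± 4.00 to 456.5 ± 4.17 CPM (SD, n = 3), or 5.37 higher on the log2 scale. The cytokine gene IL6 rose from 119.9 ± 15.1 to 490.3 ± 17.8 CPM and MMP3 had a log2 fold change of 1.88, whereas IL1B fell from 2.23 ± 0.799 to 0.678 ± 0.114 CPM (SD, n = 3).

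**Figure D4:**
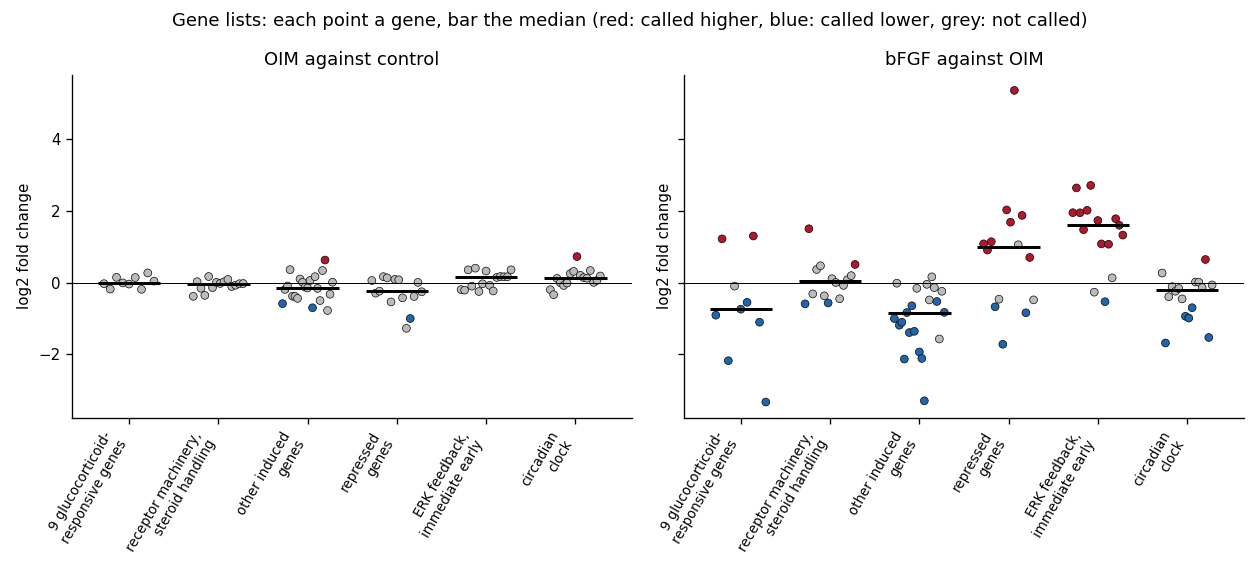
Each point is the log2 fold change of 1 tested gene, grouped by list along the horizontal axis, for OIM against control (left) and bFGF against OIM (right). Black bars mark the median of a list, red points were called higher, blue points lower, and grey points were not called. On the left the medians run from -0.25 (repressed genes) to 0.14 (ERK list), and on the right the ERK list (median 1.60) and the repressed genes (0.98) lie above 0 and the other induced genes (-0.84) below.

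SGK1, PER1 and ERRFI1 are also known as targets of growth factor signalling through the kinase ERK, so 15 ERK feedback and immediate early genes were set beside them. In OIM against control 0 of 15 were called by edgeR or DESeq2 (8 at an unadjusted p without the fold limit, 0 with it, beside 26.2% and 4.02% of all genes). Over all genes, edgeR called 2.35% in either direction. In bFGF against OIM, 12 were called higher and 1 lower, beside 17.7% and 18.4% of all genes, with a median log2 fold change of 1.60. Scaling by library totals alone gave 12 higher and 0 lower. The ETS factor genes ETV5 and ETV4 rose by 2.72 and 2.02, and the phosphatase genes DUSP5 and DUSP4 by 2.65 and 1.95. SGK1 was called higher, as were 12 of this list, and PER1 and ERRFI1 were called lower, as was 1 of it. Whether ERK signalling acted on SGK1, PER1 or ERRFI1 here was not tested.

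The 16 tested clock genes gave the surroundings of PER1. The hour of collection is not given in the sources used here. HLF, an output factor of the clock, was called higher in OIM than in control (log2 fold change 0.73), and the other 15 were not called. This is 1 of 16, beside 2.35% of all genes called in either direction. At an unadjusted p, 8 of 16 differed without the fold limit and 1 with it, beside 26.2% and 4.02% of all genes. The median of all 16 was 0.12. In bFGF against OIM, 1 was called higher and 5 lower, with a median of -0.20, and 6 of 16 is close to the 36.2% of all genes called. With library totals alone 1 was called higher and 4 lower, and the median was 0.018. The repressor gene BHLHE40 fell from 525.8 ± 25.8 to 163.3 ± 7.95 CPM (SD, n = 3), with a log2 fold change of -1.69, and the nuclear receptor gene RORA fell by 1.53 on the log2 scale. The output factor genes HLF (-0.99) and DBP (-0.94) were called lower. PER2, chosen for mention after its values were seen, had mean levels of 10.6, 13.3 and 12.1 CPM in control, OIM and bFGF, and PER2 was not called in either comparison. PER3, named on the same basis, rose by 0.65 with bFGF, opposite in sign to PER1.

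The genes whose levels followed FKBP5, TSC22D3 and PER1 most closely over the 9 libraries were ranked by Pearson's r on log2 CPM among the 13661 other genes tested. The 3 groups account for most of the variation in these points, so r describes a shared pattern over groups. FKBP5 was followed most closely by CRYBG1 (r = 0.997), LOC110261486 (0.997) and POLR1B (0.996), all highest with bFGF. TSC22D3 was followed by PCDH18 (0.995), SLC30A7 (0.995) and CNNM2 (0.994), and PER1 by MICAL1 (0.995), ABCA3 (0.990) and CRELD1 (0.987), all lowest with bFGF.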

How the data were processed

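RNA of 9 PVIC libraries was sequenced. According to the study's methods, the authors trimmed reads with Cutadapt and aligned them to susScr11 with STAR after poly-A selection. The submitters' processing notes name Trimmomatic, HISAT2, StringTie and Sscrofa11.1, and the labels a kit that removes ribosomal RNA. The counting program is not given in the sources used here. The authors deposited 1 table without normalization: 19535 genes with whole-number counts, 9888 non-coding transcripts with estimated counts and 6179 circRNAs with junction counts, beside 19 empty columns without a name, which were not used. Groups and replicate numbers were taken from sample titles.

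Gene counts were filtered with filterByExpr, normalized by TMM and fitted with edgeR 4.0.16 (R 4.3.3) in 1 quasi-likelihood model of 3 groups, with Benjamini-Hochberg adjustment over 13662 genes. The standard error is the log2 fold change divided by the square root of F, and intervals use the moderated degrees of freedom. RPKM used exon lengths of the RefSeq annotation, matched by symbol for 19510 genes. The common biological coefficient of variation was 0.0602, and all members but ZBTB16 had at least 332 counts in every library. The 3 libraries per group limited precision, and depth added to this where counts were low. In OIM against control the SE of the log2 fold change was 0.10 for SGK1 and 0.15 for ZBTB16, against 0.048 for NR3C1. Depth limited ZBTB16 most with bFGF (24 to 39 counts). Within each group the replicates varied beyond sampling noise (mean chi-square per gene 4.69 to 19.1), so each library was counted once. OIM replicate 2 stood furthest apart, with 19 and 19.1 against OIM replicates 1 and 3, which gave 5.87 between them. Sequences were read from RefSeq's Sscrofa11.1.

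The named genes are the 9 members, up to 4 called genes with the largest change per further list and comparison, and the 3 genes most correlated with FKBP5, TSC22D3 and PER1. Cell markers and genes overlapping a member are named as such. PER2, PER3, HSD11B2 and HSP90AB1 were added after their values were seen. Members and lists were chosen with earlier results of these data known. Alternatives were DESeq2 1.42.0, median-of-ratios factors, library totals, 2 other filters, fits on the 2 groups compared, a replicate block, no fold limit or a limit of 1, and fits without 1 library each.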

Additional observations from a re-analysis of the deposited data

How the results depend on the processing

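The member counts of 0 (OIM against control), 8 (bFGF against OIM) and 7 (bFGF against control) were the same under DESeq2, median-of-ratios factors, both other filters, fits on 2 groups and each left-out library, and library totals gave 7 in place of 8. The adjusted p alone gave 1 of 9 members in OIM against control, where 13.6% of all genes passed it. In the same comparison it gave 3 of 14 receptor machinery genes, 12 of 21 other induced genes, 5 of 14 repressed genes, 6 of 15 ERK genes and 6 of 16 clock genes, and in bFGF against OIM 10 receptor machinery genes and 10 clock genes. A fold limit of 1 left 5 members in bFGF against OIM and 4 in bFGF against control. For the lists it left 0 other induced and 0 clock genes in OIM against control, and 1 receptor machinery gene, 7 repressed genes and 2 clock genes in bFGF against OIM. These follow from the limits themselves. Apart from the 13.6%, no share of all genes at these limits is given here, so the counts are not read as results about the genes.

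With library totals alone KLF9 changed sign, to 0.12 in both bFGF comparisons. With 1 library left out in turn, OIM against control ranged from -0.080 to 0.091 for KLF9, from -0.16 to 0.058 for ERRFI1 and from -0.070 to 0.14 for ZBTB16, none of them called. The repressed genes called ranged from 1 to 3 and the ERK genes from 0 to 1, with 1 called without OIM replicate 2 and 1 without OIM replicate 3.

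Same-numbered libraries did not deviate together (correlations of -0.032 to 0.0035, and 0 of 18 library and group pairs correlated best with their own number), so the numbers were not used as pairs. With a replicate block the members called were 0, 8 and 7 in the same order, and the calls over all genes went from 321 to 309, from 4939 to 4917 and from 5323 to 5285. Depth limits ZBTB16 (24 to 39 counts with bFGF) most.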
